A study of Mus musculus with 2 samples.

Results

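The variable segments of the T cell receptor alpha chain (Trav genes) were read in T cells from mouse tumours. All 128 gene symbols that start with Trav were taken, of 32285 genes in the count tables, whatever their level. The cells came from BALB/c mice aged 4 to 6 weeks that carried EMT6 tumours, a transplantable mouse mammary carcinoma line implanted under the skin, and that were randomised at tumour volumes of 80 to 150 mm3. The treated group was given mSTAR1302 by intraperitoneal injection, 1 dose a week over 2 cycles, and the control group was given vehicle. Its makers describe mSTAR1302 as interleukin-2 fused to an antibody that binds receptor beta chains Trbv13-2 and Trbv13-3. CD4+ and CD8+ cells were enriched with magnetic beads from digested tumours, and each group was 1 droplet library of 3′ gene expression. The sources used here do not give the number of mice behind a library or the time from the last dose to tumour removal, so a leading segment of a library may come from few mice.

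An alpha chain gene is built in the thymus when 1 Trav segment is joined to 1 of many joining segments in front of the constant gene Trac, and the alpha chain pairs with a beta chain built in the same way from a Trbv segment. The Trav transcript of a T cell therefore marks its clone in part, and a clone that grows in a tumour raises the share of its segment. A cell can rearrange and transcribe both alpha alleles, so that 2 segments in 1 cell are known biology. Segments with dv in their symbol can also be joined into delta chains, and invariant chains that start with Trav11 or Trav1 mark natural killer T cells and mucosal-associated invariant T cells.

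With 1 library per group there is no replicate, no difference below was tested, and every 95% interval covers counting error only. UMIs (unique molecular identifiers, 1 per captured transcript) of 1 cell are not independent, so the number of cells is given beside leading values. A cell was kept with at least 1000 UMIs, at least 500 genes and at most 10% mitochondrial UMIs, which left 9155 cells of the mSTAR1302 library and 7615 of the vehicle library, with 17 barcodes in common. Cells with at least 2 UMIs of Cd3d, Cd3e and Cd3g were gated as CD8 (a Cd8a or Cd8b1 UMI and no Cd4 UMI; 6290 and 2460 cells) or as CD4 (a Cd4 UMI and no Cd8a or Cd8b1 UMI) without a Foxp3 UMI (791 and 622 cells) or with one (146 and 1365 cells). Foxp3 is the lineage factor of regulatory T cells. CD8 cells had median depths of 6597.5 and 9865.5 UMIs. The medians were 6055.0 and 6415.0 UMIs for CD4 cells that lacked Foxp3 and 6460.0 and 8340.0 for those that had it. All 8 T cell markers checked were found in every gate, but Cd3d, Cd3e and Cd3g, which the gates themselves use, are among them. The 6 macrophage markers summed to 7.22 to 72.4 CPM (UMIs of a gene per 1e6 UMIs of the gate) over the 3 gates of the mSTAR1302 library and to 242 to 834 CPM over those of the vehicle library. In the CD4 cells with Foxp3 of the mSTAR1302 library 4 of the 6 were at 0, and in the other gates and in the vehicle library none was.

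The annotation (GENCODE M21, build GRCm38, the assembly of mm10) holds all 128 segments on the plus strand of chromosome 14, from 52427928 to 53977678. Of these, 108 are annotated as variable genes and 20 as pseudogenes. Part of the locus is repeated in this reference, and the copies carry d (39 symbols), n (34) or neither letter (55). The copies set how far a count can name a segment, so the ends of the V exons of the leading segments are shown beside near copies. Each line gives the last 120 bases of the V exon, 5′ to 3′ on the plus strand. All of these bases are coding, and they run up to the junction with the joining segment. Capitals mark positions at which the copies printed together differ. The first set is Trav16n (chr14:53351502-53351621), Trav16d-dv11 (chr14:53047702-53047821) and Trav16 (chr14:53743586-53743705), with 4 such positions.
Trav16n: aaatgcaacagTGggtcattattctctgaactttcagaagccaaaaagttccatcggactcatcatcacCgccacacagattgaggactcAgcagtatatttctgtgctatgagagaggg
Trav16d-dv11: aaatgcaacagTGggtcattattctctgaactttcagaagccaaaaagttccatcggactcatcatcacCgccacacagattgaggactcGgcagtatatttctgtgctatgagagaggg
Trav16: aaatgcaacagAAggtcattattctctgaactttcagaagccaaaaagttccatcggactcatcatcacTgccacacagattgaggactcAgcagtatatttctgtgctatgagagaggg

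Trav7-3 (chr14:53443720-53443839) and Trav7d-3 (chr14:52744721-52744840) differed at 2 positions of this stretch.
Trav7-3: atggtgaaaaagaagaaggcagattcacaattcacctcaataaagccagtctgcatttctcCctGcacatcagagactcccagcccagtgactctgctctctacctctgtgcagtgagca
Trav7d-3: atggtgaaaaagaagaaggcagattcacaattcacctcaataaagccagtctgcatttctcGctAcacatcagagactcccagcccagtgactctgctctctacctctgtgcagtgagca

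Trav3-3 (chr14:53666387-53666506) and Trav3n-3 (chr14:53284056-53284175) also differed at 2 positions, and Trav14d-3-dv8 (chr14:53078926-53079045) and Trav14n-3 (chr14:53370456-53370575) at 4.
Trav3-3: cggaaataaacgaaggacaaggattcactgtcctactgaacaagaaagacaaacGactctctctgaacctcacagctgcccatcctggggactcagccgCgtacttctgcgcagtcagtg
Trav3n-3: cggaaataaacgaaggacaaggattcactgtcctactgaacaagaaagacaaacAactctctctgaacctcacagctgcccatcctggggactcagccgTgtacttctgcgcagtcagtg
Trav14d-3-dv8: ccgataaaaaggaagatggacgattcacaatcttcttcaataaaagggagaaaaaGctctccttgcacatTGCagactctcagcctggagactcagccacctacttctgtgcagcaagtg
Trav14n-3: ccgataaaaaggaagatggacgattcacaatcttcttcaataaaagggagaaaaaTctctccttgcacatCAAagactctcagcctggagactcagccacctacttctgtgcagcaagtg

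Over the whole V exon, Trav16n differed from Trav16d-dv11 at 3 bases and from Trav16 at 4, Trav7-3 from Trav7d-3 at 2, Trav3-3 from Trav3n-3 at 4 and Trav14d-3-dv8 from Trav14n-3 at 10. The segment closest to Trav14d-3-dv8 was Trav14-3, which is not printed here, with 8 differing bases. Of the 128 segments, 77 were at least 98% identical to another segment over the V exon. The reference is of another mouse strain than BALB/c, so a read may be assigned to the copy it resembles most. How reads that match several segments were treated in the authors' counting is not stated in the labels or headers.

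A UMI was found for 78 of the 128 segments in kept cells, and 50 had none. Among the 78 were 72 variable genes and 6 pseudogenes, and the pseudogenes held 55 of 8481 Trav UMIs (0.649%). Which segments were seen went with how much sequence they share with others. Of the 38 segments without a 90-base window of their own in the annotated transcript, 7 had a UMI, and the 38 together held 12 UMIs. Of the 22 segments with a unique window but fewer than 50% of windows unique, 16 had a UMI, and of the 68 with at least 50% unique, 55 had one. Trav6d-7, with a V exon identical to that of Trav6n-7, had 0 UMIs, as did that copy. A segment at 0 in these tables is therefore not shown to be unused by the cells.

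Summed over all segments, the ratio of Trav levels between the libraries lay between 0.802 and 1.02 in the 3 gates. In CD8 cells 2761 Trav UMIs gave 56.6 CPM with mSTAR1302 (exact Poisson interval 54.5 to 58.7) and 1790 gave 61.8 CPM with vehicle (59.0 to 64.8), a ratio of 0.915 (0.862 to 0.971). With median-ratio scaling the ratio was 1.05, on the other side of 1, so the level of the family in CD8 cells has no direction that holds under both scalings. CD4 cells that lacked Foxp3 held 284 and 293 UMIs, or 54.4 and 67.8 CPM, a ratio of 0.802 (0.678 to 0.947). CD4 cells that had it held 80 and 908 UMIs, or 64.2 and 62.9 CPM, a ratio of 1.02 (0.801 to 1.28). Per 100 UMIs of the constant gene Trac, CD8 cells held 8.34 and 8.16 Trav UMIs, CD4 cells that lacked Foxp3 8.17 and 9.47, and those that had it 10.1 and 7.73. In 3′ libraries most reads lie far from the variable end of the transcript.

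A Trav UMI was found in 28.5% of CD8 cells with mSTAR1302 (exact Clopper-Pearson interval 27.4 to 29.7%) and in 39.7% with vehicle (37.8 to 41.7%). The vehicle cells were deeper. Thinned to 3000 UMIs per cell, 5610 cells with mSTAR1302 held one in 15.0% and 2340 with vehicle in 16.5%, which differ by -1.52 percentage points (interval -3.33 to 0.21). This left out 680 and 120 cells of lower depth. Thinned to 1000 UMIs, which leaves out no cell, the shares were 5.68% and 7.03%, a difference of -1.36 points whose interval left out 0 (-2.57 to -0.24). In CD4 cells thinned to 3000 UMIs the shares lay between 15.4% and 16.4%. The differences were -0.60 points (-4.75 to 3.44) without Foxp3 and 0.05 points (-5.68 to 7.49) with it. Macrophage-like cells, which should lack these genes, held a Trav UMI in 0 of 15 and 1 of 62 cells at median depths of 12158.0 and 22586.5 UMIs, and a count of 0 of 15 allows a share of up to 20.0% (3 of 15) by counting error or 21.8% by the exact interval. Near-empty droplets (20 to 200 UMIs) held 137 and 88 Trav UMIs, or 34.7 and 26.3 CPM, so free RNA carried these transcripts too, and a Trav UMI was found in 0.545% and 0.411% of such droplets. The share of a gated cell's Trav UMIs that is free RNA was not tested.

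The CD8 cells of the 2 libraries drew their alpha chains from the same few leading segments in different proportions. Trav16n, Trav7-3 and Trav3-3 led in both and together held 39.8% of Trav UMIs with mSTAR1302 and 59.3% with vehicle. Trav7-3 differed most. It led the vehicle library and came after Trav16n and Trav3-3 with mSTAR1302. Of the 128 segments, 21 had a higher share with mSTAR1302 with an interval of the difference that left out 0 (16.4%), 5 had a lower share (3.91%), and 102 had an interval that held 0. Of the 128, 52 had no UMI in any gated cell and could not differ, and the percentages of the 128 in every gate count them. In CD8 cells 68 segments had a UMI with mSTAR1302 and 67 with vehicle. Over the 35 Trbv segments, read the same way, 8.57% were higher and 28.6% lower. With each cell counted once per segment, 15 Trav segments were higher and 5 lower. Without Trav7-3 UMIs 12 were higher, and with copies pooled by number 10 were higher and 2 lower.

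Trav7-3 (ENSMUSG00000096908, chr14:53443249-53443839) held 235 UMIs in 157 cells with mSTAR1302, 8.51% of Trav UMIs (7.50 to 9.61%), and 452 UMIs in 242 cells with vehicle, 25.3% (23.3 to 27.3%). The difference was -16.7 points (-19.0 to -14.5), and the CPM was 3.24-fold lower with mSTAR1302 (2.76 to 3.81). Per cell with a Trav UMI rather than per UMI, Trav7-3 was found in 8.75% against 24.8%. A cell with a Trav7-3 UMI held 1.50 of them on average with mSTAR1302 and 1.87 with vehicle, so the vehicle share rests on many cells and not on a few rich ones. The copy Trav7d-3, which differs at 2 bases, is counted apart, and with all 13 Trav7 segments pooled the shares were 13.5% and 29.2%.

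Trav3-3 (ENSMUSG00000094828, chr14:53665929-53666506) was the other leading segment with a lower share. It held 281 UMIs in 214 cells with mSTAR1302 (10.2%) and 280 UMIs in 208 cells with vehicle (15.6%), a difference of -5.46 points (-7.52 to -3.47). Trav9-4 followed with 30 UMIs (1.09%) and 53 UMIs (2.96%), 2.98-fold lower by CPM (1.87 to 4.83). Trav6-5 stood at 22 and 26 UMIs (0.797% and 1.45%). Trav13n-3 stood at 1 and 8 UMIs, the 8 from 4 cells.

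Trav16n (ENSMUSG00000076822, chr14:53351028-53351621) led the mSTAR1302 library. It held 582 UMIs in 354 cells with mSTAR1302 (21.1%, 19.6 to 22.6%) and 329 UMIs in 157 cells with vehicle (18.4%, 16.6 to 20.3%), a difference of 2.70 points (0.32 to 5.03). Shares of 1 total move together, and when Trav7-3 UMIs were left out of both totals the difference of Trav16n was -1.55 points with an interval that held 0 (-4.41 to 1.25). Its CPM was 1.05 times the vehicle value (0.915 to 1.20). Its near copy Trav16d-dv11 took 3.69% and 2.57%.

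The segments with the largest gains after Trav16n were minor ones. Trav12-3 held 61 UMIs in 49 cells with mSTAR1302 (2.21%) and 9 UMIs in 7 cells with vehicle (0.503%), a CPM ratio of 4.02 (1.98 to 9.21). Trav21-dv12 held 55 UMIs in 29 cells and 6 UMIs in 5 cells, a ratio of 5.44 (2.34 to 15.5), with 1.90 UMIs per cell under mSTAR1302. Trav13-1 stood at 2.10% and 0.782% and Trav2 at 1.77% and 0.503%. All 4 kept a higher share, with an interval that left out 0, when each cell counted once (Trav21-dv12 by 0.971 points) and when Trav7-3 was left out. Without cells that held a macrophage marker UMI the interval of Trav13-1 held 0 (0.68 points, -0.23 to 1.41). By number with copies pooled, Trav12 took 3.77% against 0.894%, Trav8 4.09% against 2.18% and Trav13 4.67% against 2.57%.

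**Figure D1:**
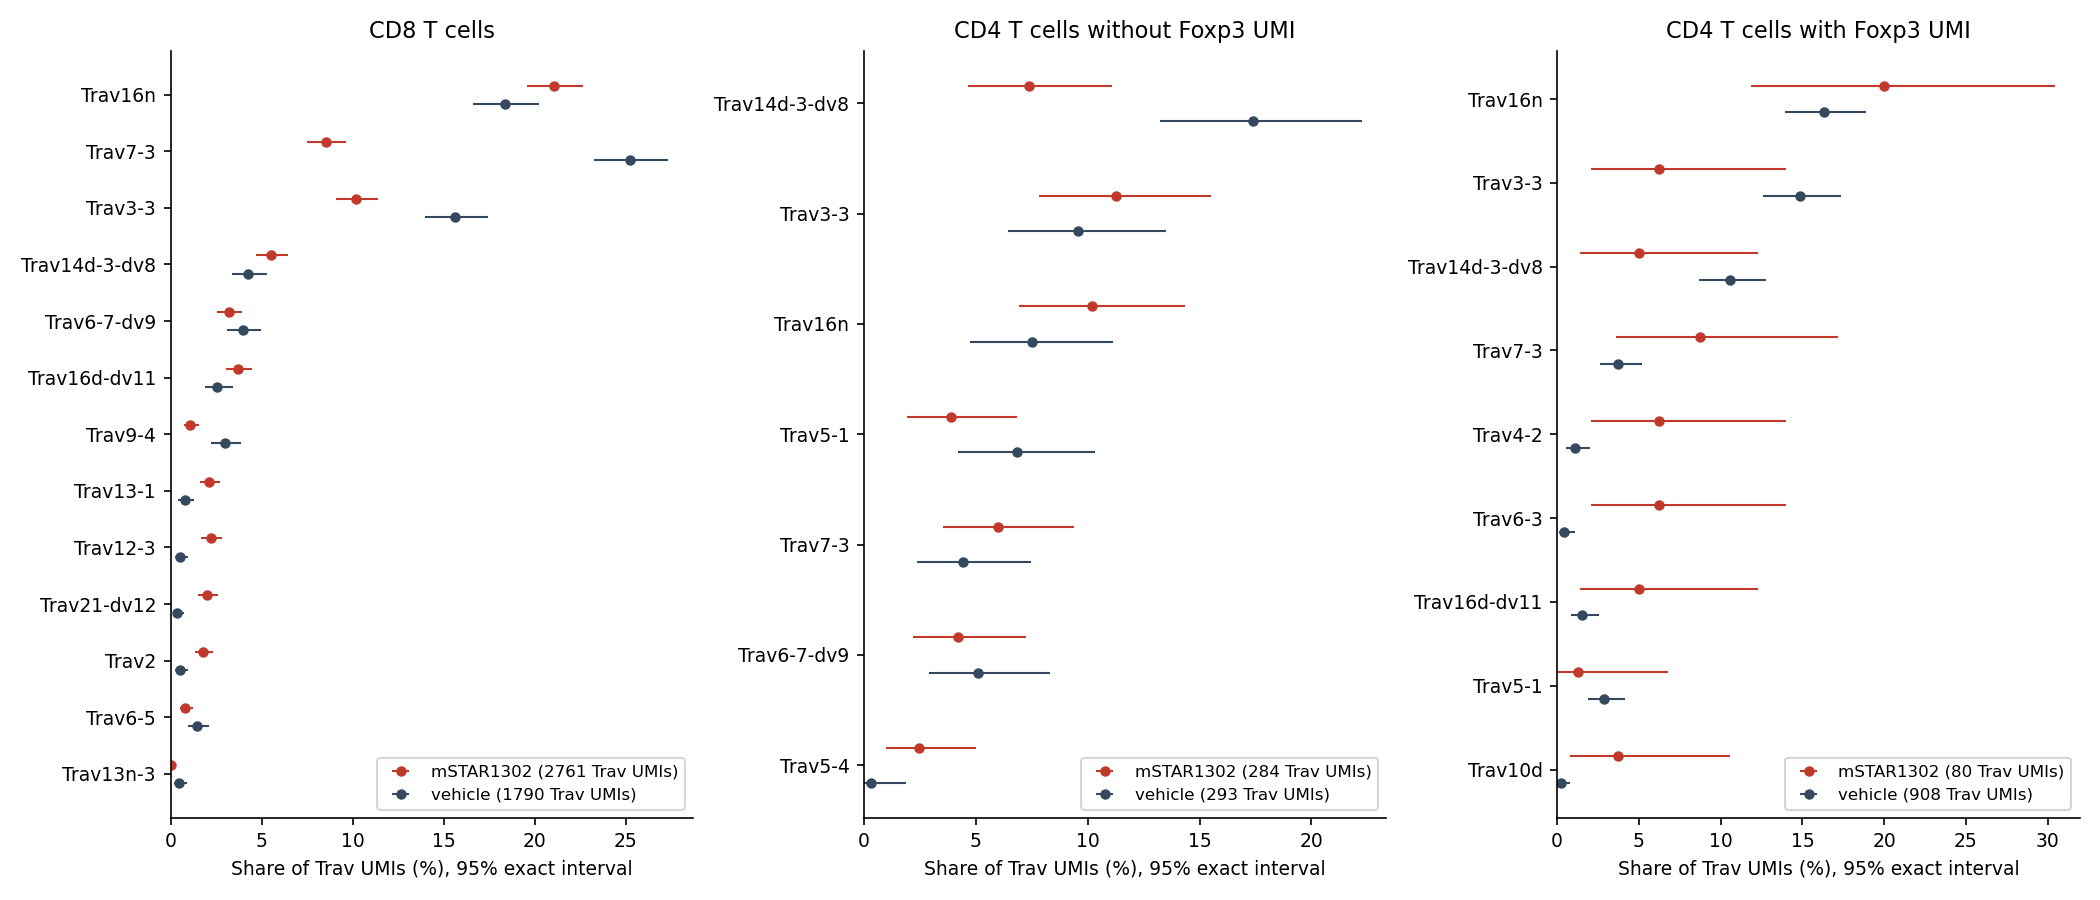
Share of Trav UMIs (%, x axis) of the segments named by rule in each gate, with exact 95% intervals, for the mSTAR1302 library (red) and the vehicle library (dark blue). Trav7-3 stands at 8.51% and 25.3% and Trav3-3 at 10.2% and 15.6% among CD8 cells, and Trav14d-3-dv8 at 7.39% and 17.4% among CD4 cells that lack Foxp3.

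On the CPM scale, 46 segments had at least 20 UMIs over both libraries in CD8 cells. Of these, 17 (37.0%) stood 2-fold or more above vehicle with mSTAR1302, 2 stood 2-fold or more below it (Trav7-3 and Trav9-4) and 27 lay between. Without cells that held a macrophage marker UMI the 17 became 11. Over all 13870 genes that passed the same filter, 2.16% were at least 2-fold higher and 15.7% lower. The 17 were all among the 40 segments with 20 to 100 UMIs, and among the 2773 genes of that range 5.73% were at least 2-fold higher and 39.2% lower. Among genes with at least 50 UMIs, 4 segments were at least 2-fold higher. The median log2 ratio was 0.60 over the 46 segments and -0.21 over all genes that passed. These segments passed the filter partly through the library in which they are high, so the counts describe the 46 and not the family.

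In the order of the locus, Trav16n is segment 78, Trav7-3 segment 85 and Trav3-3 segment 108. The first 32 segments, from Trav1 to Trav5d-3, held 16.3% and 10.5% of Trav UMIs with mSTAR1302 and vehicle, the next 32 held 11.9% and 8.38%, the 32 after those, from Trav5n-3 to Trav13-1, 41.1% and 51.5%, and the last 32 held 30.7% and 29.6%. That stretch, from Trav5n-3 on, holds both Trav16n and Trav7-3. The segments with dv in their symbol, 10 in all, took 17.6% and 12.7% of CD8 Trav UMIs, a difference of 4.83 points (2.70 to 6.90). Shares of 1 total move together, and this CD8 difference was not read without Trav7-3 UMIs. In CD4 cells that lacked Foxp3 the dv segments took 16.5% and 27.0%, the other way round, a difference of -10.4 points (-17.0 to -3.68). Trav14d-3-dv8 alone held 21 of the 47 dv UMIs there with mSTAR1302 and 51 of the 79 with vehicle. Trdc, the constant gene of the delta chain, stood at 3.30 and 3.59 CPM in CD8 cells.

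**Figure D2:**
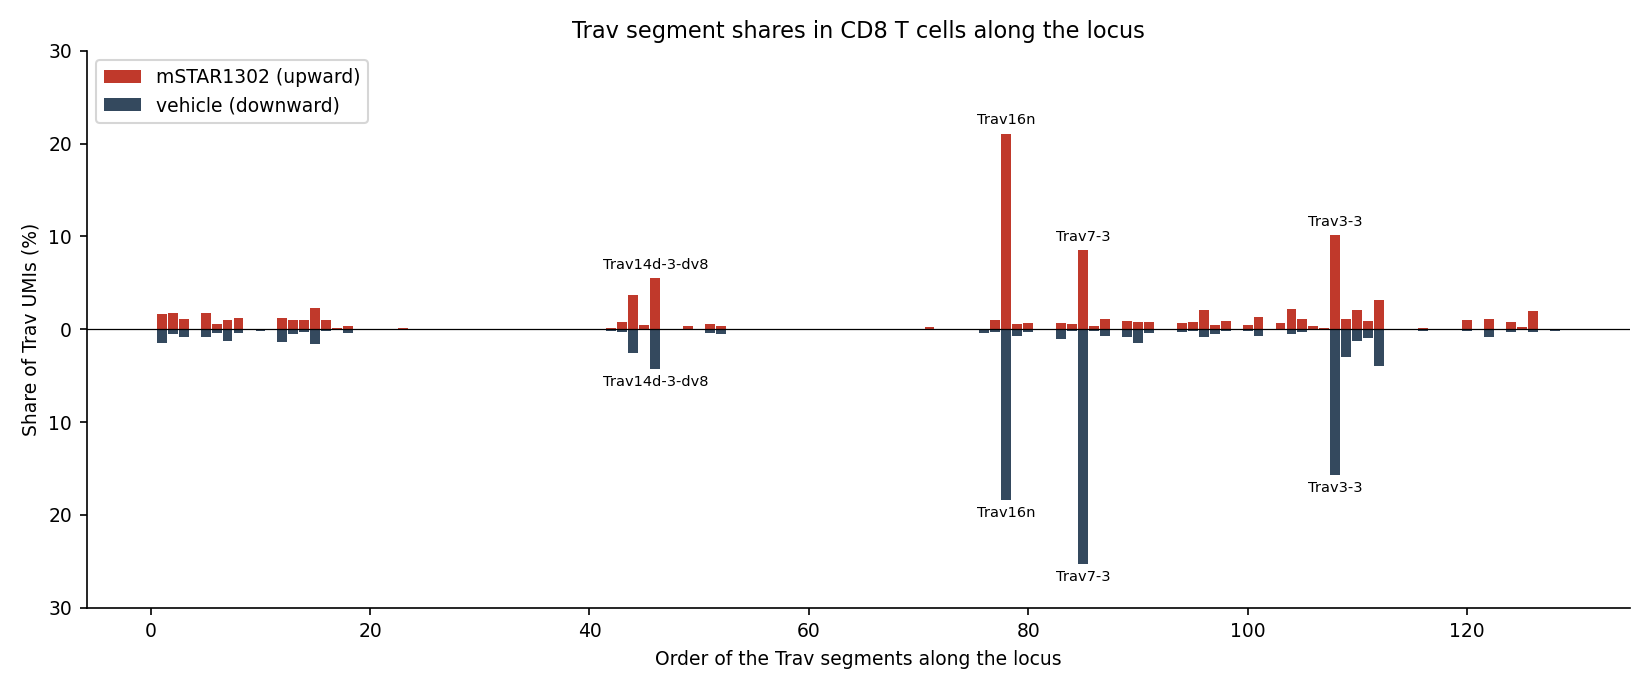
Share of Trav UMIs (%, y axis) in CD8 cells for all 128 segments in the order in which they lie on the chromosome, with mSTAR1302 upward and vehicle downward. Trav16n, Trav7-3 and Trav3-3 stand out in both directions, and the runs near 0 are mostly copies that share their sequence with others.

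Trav use was more even in CD8 cells of the mSTAR1302 library. The inverse Simpson number, the number of equally common segments that would give the same chance of drawing 1 segment in 2 draws, was 13.7 with mSTAR1302 (delta-method interval 12.6 to 14.8) and 7.77 with vehicle (7.22 to 8.32), a difference of 5.91 (4.70 to 7.13). At an equal number of 1790 Trav UMIs the Shannon effective number, which gives rarer segments more weight, was 27.9 and 15.9. The number of segments seen depended on how many UMIs were read, with 31.1 and 23.2 expected at 80 UMIs and 64.9 and 67.0 at 1790 UMIs. Without Trav7-3 the difference in the inverse Simpson number was 4.11 (2.73 to 5.50), and without cells that held a UMI of a macrophage marker it was 6.32 (4.99 to 7.65). With copies pooled by number the values were 8.44 and 5.87.

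In CD4 cells without Foxp3 the inverse Simpson number was 24.1 with mSTAR1302 (19.0 to 29.2) and 16.6 with vehicle (12.98 to 20.2), a difference of 7.47 (1.22 to 13.7). At 284 UMIs 57.0 and 46.7 segments were seen. With copies pooled the difference was 1.16, with an interval that held 0 (-0.78 to 3.10). In CD4 cells with Foxp3 the numbers were 15.6 (8.61 to 22.7) and 14.7 (12.8 to 16.5), a difference of 0.98 whose interval held 0 (-6.28 to 8.25), and 28.0 and 31.6 segments were seen at 80 UMIs.

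**Figure D3:**
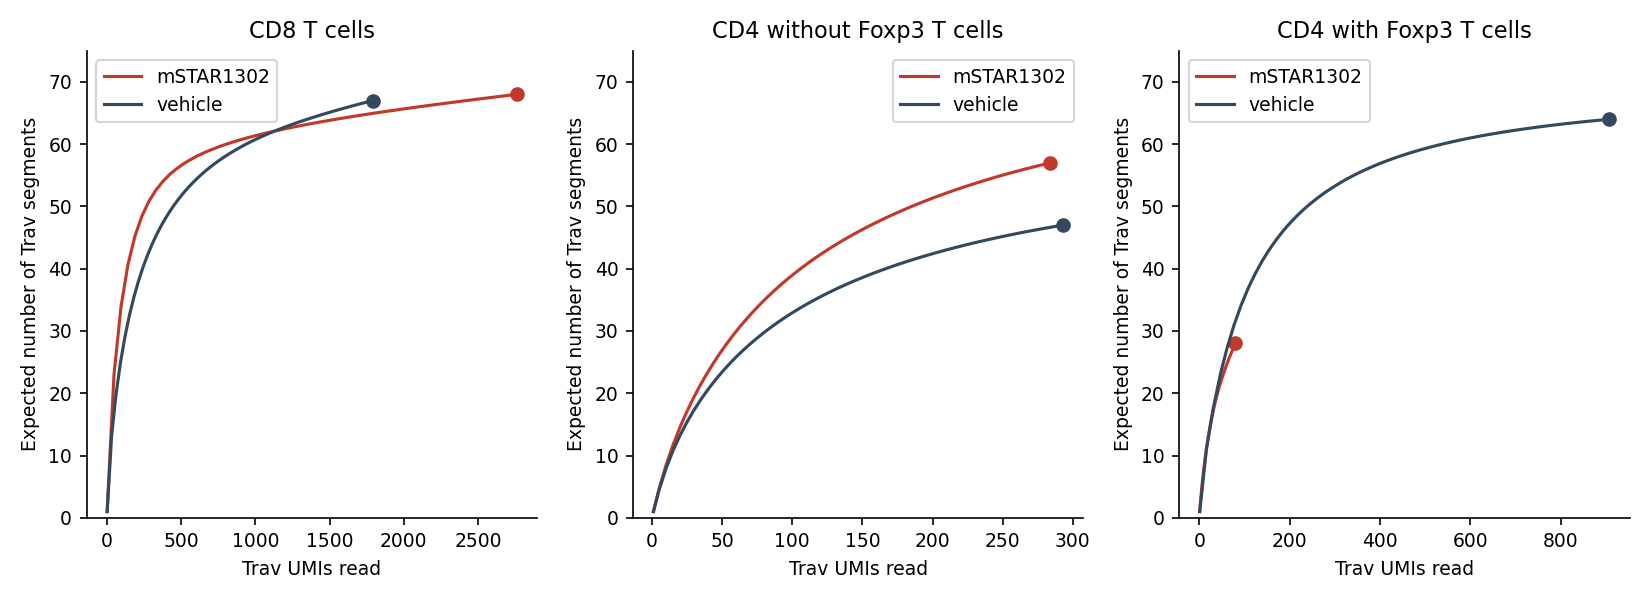
Expected number of Trav segments (y axis) against the number of Trav UMIs read (x axis) in each gate, by exact rarefaction, with a point at the full total of each library. In CD8 cells the mSTAR1302 curve is higher at first and the curves then cross, reaching 64.9 and 67.0 segments at 1790 UMIs. In CD4 cells without Foxp3 the mSTAR1302 curve reaches 57.0 segments at 284 UMIs, where the vehicle curve stands at 46.7.

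In CD4 cells few segments had an interval that left out 0, but there were fewer Trav UMIs to read. These were 284 and 293 without Foxp3 and 80 and 908 with it, where CD8 cells held 2761 and 1790. The counts of segments can therefore not be set against those of CD8 cells. Without Foxp3, 1 segment had a higher share with an interval that left out 0 (0.781% of the 128) and 1 a lower share (0.781%). Trav14d-3-dv8 (ENSMUSG00000094619, chr14:53078452-53079045) led the vehicle cells with 51 UMIs in 34 cells (17.4%, 13.2 to 22.2%) and held 21 UMIs in 16 cells with mSTAR1302 (7.39%, 4.64 to 11.1%), a difference of -10.0 points (-15.4 to -4.67). Trav5-4 stood at 7 UMIs and 1 UMI, and its interval held 0 when each cell counted once. Trav3-3, Trav16n, Trav7-3 and Trav6-7-dv9 were between 4.23% and 11.3% in both libraries, with intervals of the difference that held 0. Trav5-1 stood at 11 and 20 UMIs. On the CPM scale 6 segments passed the filter, of which 0 were 2-fold or more higher and 2 (Trav5-1 and Trav14d-3-dv8) 2-fold or more lower, beside 1.12% and 12.6% of all genes. Trdc stood at 7 and 37 UMIs in this gate.

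With Foxp3, 7 segments had a higher share with an interval that left out 0 (5.47%) and 1 a lower share (0.781%), and the mSTAR1302 side rests on 80 Trav UMIs in 46 cells. Trav16n led in both libraries, with 16 UMIs in 7 cells (20.0%) and 148 UMIs in 56 cells (16.3%). Trav3-3 took 6.25% and 14.9%, a difference of -8.62 points (-12.9 to -0.75), and Trav14d-3-dv8 5.00% and 10.6%, with an interval that held 0. Trav7-3 went against its CD8 order, with 7 UMIs in 4 cells (8.75%) and 34 UMIs in 22 cells (3.74%). The other segments named by rule, Trav4-2, Trav6-3, Trav16d-dv11 and Trav10d, had 3 to 5 UMIs each with mSTAR1302, and Trav5-1 had 1 UMI there and 26 with vehicle. When each cell counted once, 4 segments were higher and 0 lower. Of 11 segments that passed the CPM filter 2 were 2-fold or more higher (Trav7-3 and Trav3-4, the latter from 1 cell with mSTAR1302) and 3 lower (Trav5-1, Trav14d-3-dv8 and Trav3-3), beside 1.75% and 11.3% of all genes.

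The vehicle library shows how unevenly its segments fell over the lineages. Trav7-3 held 25.3% of Trav UMIs in CD8 cells (23.3 to 27.3%), 4.44% in CD4 cells without Foxp3 (2.38 to 7.47%) and 3.74% in CD4 cells with Foxp3 (2.61 to 5.19%). Trav14d-3-dv8 was lowest in CD8 cells, with 4.25% (3.36 to 5.29%), 17.4% (13.2 to 22.2%) and 10.6% (8.65 to 12.8%). In the mSTAR1302 library Trav7-3 held 8.51%, 5.99% and 8.75%, with intervals that overlapped. In near-empty droplets of the vehicle library Trav7-3 held 12 of 88 Trav UMIs (13.6%, 7.25 to 22.6%).

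Of the segments used by invariant chains, those of natural killer T cells could hardly be read. Trav11 and Trav11d have identical V exons, and of their 90-base windows 1 of 254 and 0 of 253 are unique. They and the pseudogene Trav11n held 1 UMI in CD8 cells of each library and 0 in both CD4 gates, which says nothing of how often the cells use them. Trav1, the segment of mucosal-associated invariant T cells, held 44 and 27 UMIs in CD8 cells (1.59% and 1.51%), 8 and 11 in CD4 cells that lacked Foxp3, and 1 and 13 in those that had it. Each of these differences had an interval that held 0.

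Many cells held more than 1 segment. Of the CD8 cells with at least 2 Trav UMIs, 53.4% of 571 with mSTAR1302 (49.2 to 57.6%) and 55.4% of 437 with vehicle (50.6 to 60.1%) held 1 segment. With copies pooled by number the shares were 67.1% and 64.1%. The most common pair was Trav16n with Trav16d-dv11, in 51 of 266 and 24 of 195 cells with several segments, and the 2 differ at 3 bases of the V exon. The pair of Trav3-3 and Trav9-4, which do not share a number, was found in 8 and 16 of these cells. With vehicle Trav3-3 was also found beside Trav16n in 15 of these cells and beside Trav7-3 in 13. With mSTAR1302 Trav16n was found beside Trav7-3 in 6. The sets of cells read by leading segment below therefore overlap in part. Of the CD8 cells with at least 2 Trbv UMIs, 52.8% of 407 with mSTAR1302 (47.8 to 57.8%) and 66.1% of 174 with vehicle (58.5 to 73.1%) held 1 Trbv segment. At this cut the libraries lay further apart by Trbv than by Trav. With at least 3 UMIs the shares were 48.2% (38.6 to 57.9%) and 53.3% (40.0 to 66.3%) by Trbv, and 39.9% and 44.2% by Trav. Doublets were not removed. Without cells above 20000 UMIs, which removes the deepest cells, the difference in the CD8 inverse Simpson number stayed within its interval. The parts of second alleles, doublets and free RNA in these pairs cannot be told apart here.

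Trbv partners were read in CD8 cells that held both a Trav and a Trbv UMI. In the vehicle library 35 of the 242 Trav7-3 cells had a Trbv UMI, and 18 of the 35 held Trbv5 (51.4%, 34.0 to 68.6%), where 12.2% of 237 cells with other Trav segments did, a difference of 39.2 points (22.6 to 55.2). In the mSTAR1302 library 7 of 41 Trav7-3 cells held Trbv5 (17.1%) against 2.43% of other Trav cells, a difference of 14.6 points (5.91 to 28.9). Trav7-3 thus met Trbv5 more often than other segments did in both libraries. Trav3-3 met Trbv5 in 19 of 46 vehicle cells (41.3% against 12.4%) and in 6.82% of 44 mSTAR1302 cells. The most common Trbv of Trav16n cells was Trbv13-3 in both libraries. With mSTAR1302 46 of 131 Trav16n cells held it (35.1%), close to the 32.3% of other Trav cells, and 37 held Trbv2 (28.2% against 2.73%). With vehicle 19 of 74 held Trbv13-3 (25.7% against 1.52%), 11 held Trbv15 (14.9% against 1.52%) and 9 held Trbv17 (12.2% against 2.53%). Trbv2 was held by 7 of these 74 (9.46% against 8.59%). The near copy Trav16d-dv11 met Trbv2 in 10 of 39 cells with mSTAR1302 (25.6% against 7.68%). With vehicle it did so in 4 of 15 (26.7% against 7.78%). These pairs were named after their values were seen. A cell with UMIs of several Trbv segments counts under each.

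**Figure D4:**
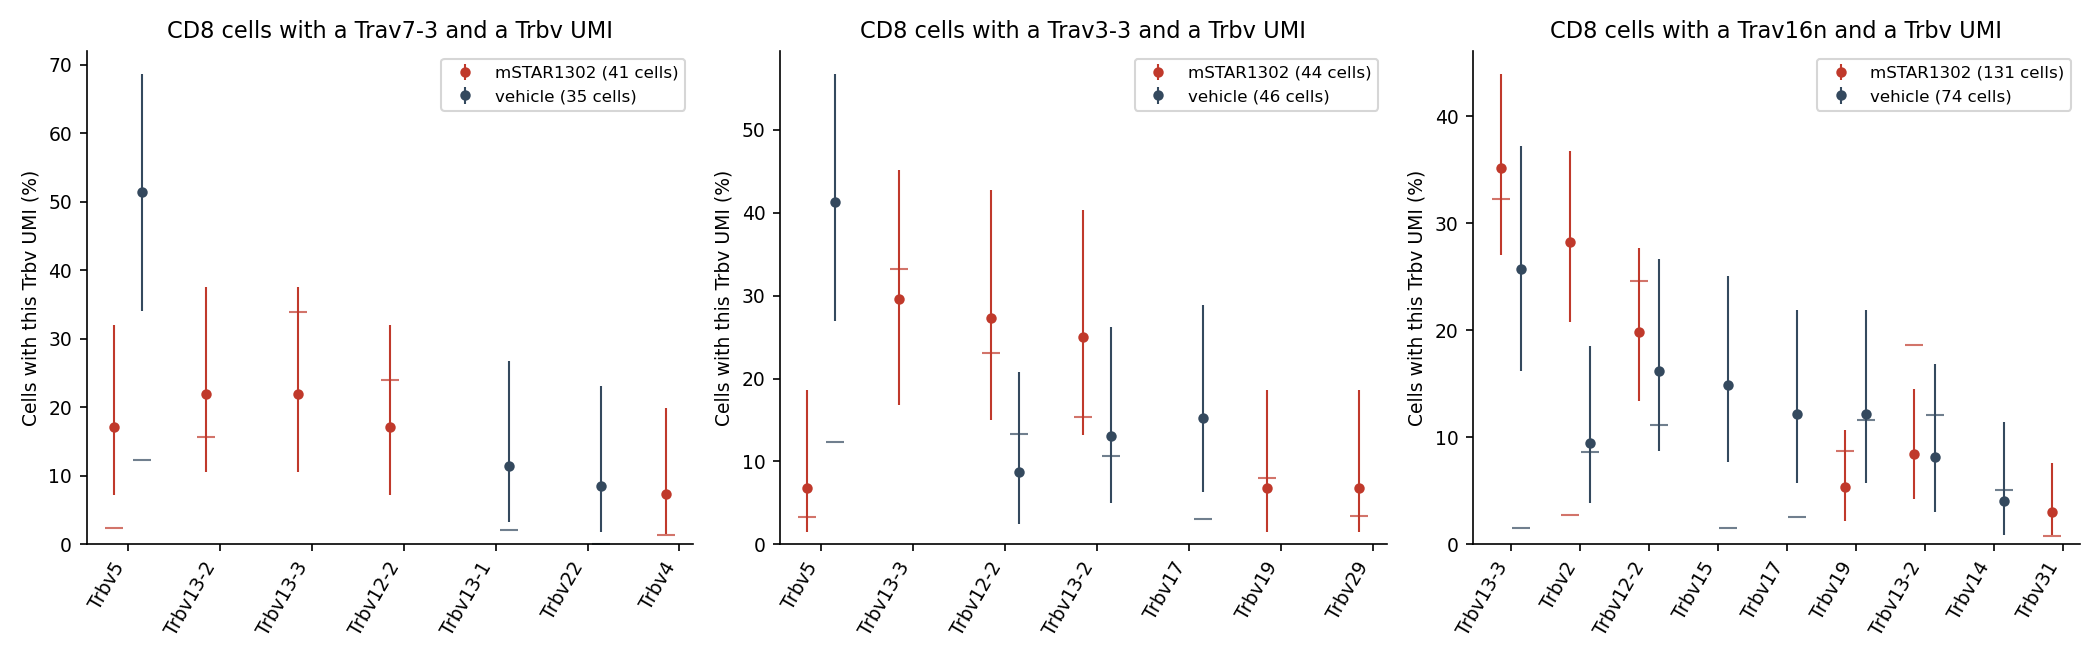
Percent of CD8 cells with a Trav7-3, Trav3-3 or Trav16n UMI and any Trbv UMI that held each Trbv segment (y axis), for up to 9 segments with at least 3 cells, with exact 95% intervals (points) and the same percent among cells with other Trav segments (dashes). Trbv5 stands at 51.4% of the Trav7-3 cells with vehicle, and Trbv2 at 28.2% of the Trav16n cells with mSTAR1302.

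CD8 cells with a UMI of Trbv13-2 or Trbv13-3, the chains that mSTAR1302 is said to bind, were compared with CD8 cells that held only other Trbv UMIs. With mSTAR1302 the inverse Simpson number was 11.8 from 423 Trav UMIs (9.32 to 14.2) and 9.97 from 499 (7.96 to 12.0), a difference of 1.81 (-1.36 to 4.98). Among 19 segments with at least 10 UMIs, Trav3-3 (10.2% against 6.01%) and Trav13-1 (3.07% against 0.802%) had a higher share in the Trbv13-2 or Trbv13-3 cells with an interval that left out 0 (10.5% of the 19), and Trav1 a lower one (0.473% against 3.41%; 5.26%). The Trav13-1 values rest on 8 and 4 cells and those of Trav1 on 2 and 7, and with each cell counted once the interval of Trav3-3 held 0.

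In the vehicle library the same split gave 4.21 from 105 Trav UMIs (2.71 to 5.70) in 49 cells and 7.95 from 407 (6.70 to 9.20) in 223 cells, a difference of -3.75 (-5.70 to -1.79). The number of segments expected at 105 UMIs went the other way, with 26.0 and 24.7. Trav16n took 50 of the 105 UMIs, from 24 cells (47.6% against 27.3%). Among 9 segments with at least 10 UMIs, Trav16n and Trav1 were higher (22.2%) and Trav7-3 (2.86% against 14.7%) and Trav14d-3-dv8 (0 UMIs, exact upper limit 3.45%, against 7.13%) were lower (22.2%). With each cell counted once the interval of Trav7-3 held 0 (-12.7 to 1.06).

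Other transcripts of the leading segments' cells were read after the data were seen, as a description. Trav7-3 cells of the vehicle library held more Trbc1 than Trbc2 UMIs in 8.44% of 237 cells with unequal counts (5.23 to 12.7%), and cells with other Trav segments in 45.5% of 714 (41.8 to 49.3%). Trbc1 and Trbc2 are the 2 constant genes of the beta chain, and a rearranged allele uses 1 of them. Trav3-3 cells of the same library lay on the other side, 62.6% of 203 against 29.1% of 748. With mSTAR1302 the shares were 20.5% of 156 against 34.2% of 1577 for Trav7-3 and 40.1% of 212 against 32.0% of 1521 for Trav3-3. Trav16n cells showed no such lean, with 35.1% against 36.5% in the vehicle library and 33.1% against 33.0% with mSTAR1302.

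In the vehicle library, Trav7-3 cells (median 11328.5 UMIs) differed in other transcripts from the cells with other Trav segments (median 10471.0 UMIs). Ly6c2, a surface protein of memory and effector cells, was 3.44-fold lower (2.94 to 4.04), at 55.1 CPM where the others had 189. Tcf7, the transcription factor of naive and stem-like cells, was 2.81-fold lower, and Mki67, a marker of dividing cells, 2.17-fold lower by CPM. By cells, a Tcf7 UMI was found in 12.0% against 24.5% and a Mki67 UMI in 21.5% against 27.1%. Areg, a growth factor, stood at 448 against 175 CPM, 2.56-fold higher (2.38 to 2.75), with an Areg UMI in 113 of the 242 cells, and Pdcd1, the inhibitory receptor PD-1, was 1.46-fold higher (1.35 to 1.58). Gzma, a granzyme, was 4.71-fold lower by CPM, but a UMI of it was found in 6.20% of Trav7-3 cells and 6.53% of the others, so that the fold lies in the UMIs per cell. The 6 macrophage markers summed to 178 CPM in Trav7-3 cells and 77.3 CPM in the others, and were found in 41.3% and 42.3% of cells. A Foxp3 UMI, which the CD8 gate does not exclude, was found in 9.50% of Trav7-3 cells and 19.0% of the others. With mSTAR1302 these shares were 3.18% and 3.97%. The part of macrophage markers or of cells with Foxp3 in these differences was not tested. Over 9196 genes with at least 50 UMIs, 0.598% were at least 2-fold higher in Trav7-3 cells and 2.96% lower.

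In the mSTAR1302 library the ratios of Ly6c2 and Areg between the 157 Trav7-3 cells and the other cells lay nearer to 1 than with vehicle. Ly6c2 was 1.52-fold lower (1.40 to 1.66) and Pdcd1 1.35-fold higher (1.17 to 1.54), Mki67 was 1.22-fold higher (1.08 to 1.38) and the ratio of Areg was 0.924 (0.705 to 1.19). By CPM Mki67 thus stood on opposite sides in the 2 libraries, as did Xcl1, a chemokine, at 2.23-fold lower with mSTAR1302 and 1.45-fold higher with vehicle. By cells Xcl1 did not, with a UMI in 17.2% of Trav7-3 cells against 14.2% with mSTAR1302 and 62.8% against 50.9% with vehicle. A Mki67 UMI was found in 22.9% against 22.0% of cells with mSTAR1302. Over 9325 genes 0.976% were 2-fold or more higher in Trav7-3 cells and 2.35% lower.

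**Figure D5:**
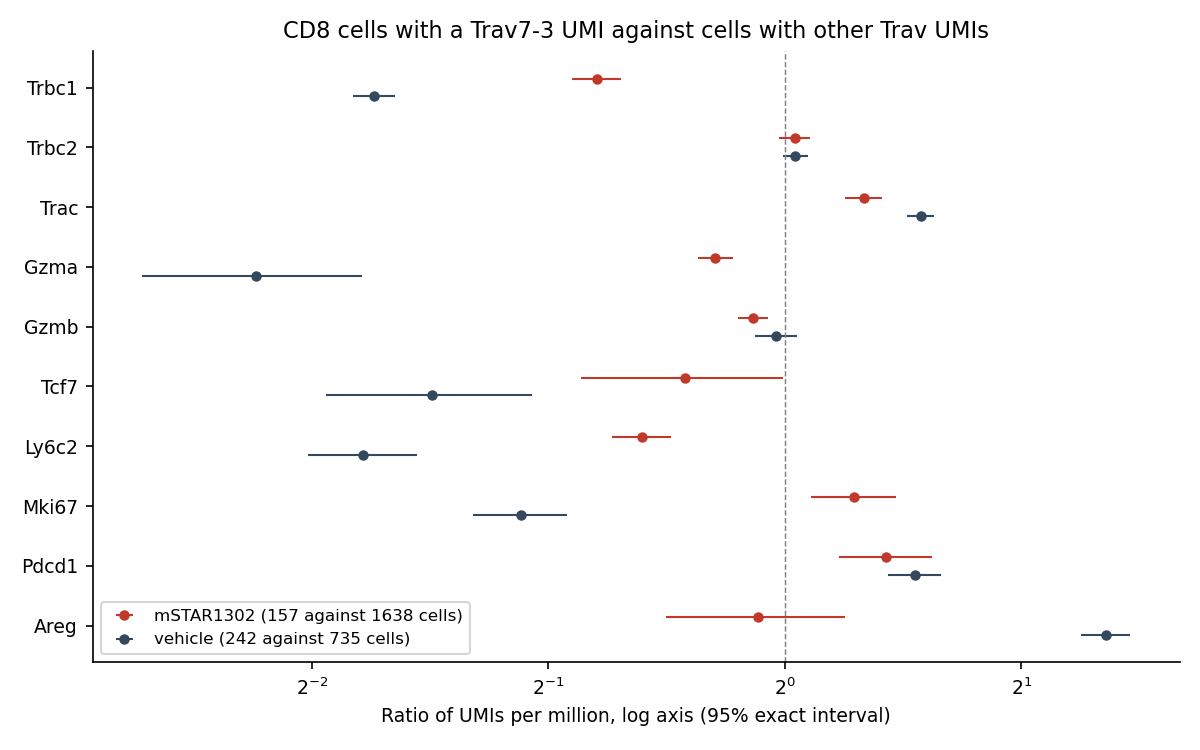
Ratio of CPM in CD8 cells with a Trav7-3 UMI over CD8 cells with other Trav UMIs (x axis, log scale) for 10 genes, with exact 95% intervals that cover counting error only. Areg stands at 2.56 and Mki67 at 0.461 in the vehicle library, and at 0.924 and 1.22 in the mSTAR1302 library.

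Of 16 other genes of the receptor and its proximal signalling, 14 had at least 20 UMIs in CD8 cells. Of these, 0 were at least 2-fold higher and 1 lower, beside 2.16% and 15.7% of all genes. The lower gene was Ptcra, the surrogate alpha chain of the thymus, at 15 and 18 UMIs. In CD4 cells without Foxp3 0 of 13 were at least 2-fold higher and 1 lower (Trdc), beside 1.12% and 12.6% of all genes. With Foxp3 1 of 13 was higher and 1 lower, beside 1.75% and 11.3%. These were Trat1, an adaptor of the receptor complex, 2.10-fold higher, and Trdc, lower at 2 and 78 UMIs. Rag1, which cuts the segments during rearrangement, had 0 UMIs in every gate. Trac stood at 679 and 758 CPM in CD8 cells. All Trbv segments together stood at 44.8 and 29.9 CPM there, a ratio of 1.50 (1.39 to 1.62), where Trav had 0.915.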

How the data were processed

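Droplet 3′ libraries of CD4+ and CD8+ tumour T cells were read, 1 for mSTAR1302 and 1 for vehicle, grouped by their labels. The deposited matrices give raw UMI counts by gene and barcode, made by the authors with Cell Ranger, version 4 per the file headers and 6.0.1 per the submitters' processing notes, on mm10. The matrices were unfiltered and held 96486469 and 110026997 UMIs. The 128 members and all lists were chosen with earlier results of these data known. Each gate was read as the sum of its cells' UMIs. CPM carry exact Poisson intervals, CPM ratios exact conditional binomial intervals, shares Clopper-Pearson intervals and differences of shares Newcombe intervals, all at 95% and for counting error only. Rarefaction was exact. Thinning used seed 1. No doublet caller was run and no test was made. Segments were named by rule: the 5 with the most UMIs (at least 10) per gate and library, up to 5 per direction by share difference, Trav1, Trav11 and Trav11d, and counts for the dv segments. Copies were pooled by number as an alternative. Sequences and positions come from GENCODE M21, where all 128 identifiers matched. Functions were tested on simulated data. Tools were Biopython 1.88, matplotlib 3.10.9, SciPy 1.17.1, pandas 2.3.3, NumPy 2.4.6 and Python 3.11.15.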

Additional observations from a re-analysis of the deposited data

Results flagged for a closer look

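Trav UMIs were also found in T cells that no gate took. T cells with both Cd4 and Cd8a or Cd8b1 UMIs held 497 Trav UMIs with mSTAR1302 and 1225 with vehicle, and T cells with neither held 174 and 362, where macrophage-like cells held 0 and 1. Trav7-3 took 11.3% of the 1225 (9.62 to 13.3%) and 3.22% of the 497 (1.85 to 5.18%). Cells with both lineages were deep, with medians of 9005.0 and 13028.0 UMIs, a value that droplets with several cells also have, and the part of doublets was not tested.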

How the results depend on the processing

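With 1 library per group leaving out a replicate was not possible. No paired analysis was possible because each group is 1 library. Of 182 alternative values of the main results 135 stayed within the tolerance, 46 moved and 1 changed side, and of 109 for single segments 105, 3 and 1 did. The cause was not tested for any. Leaving out macrophage-marker cells and leaving out Trav7-3 were chosen after seeing the data.

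The CD8 ratio of Trav CPM (0.915) was 1.05 with median-ratio scaling, 0.841 with equal cell weights, 0.823 without cells above 20000 UMIs and 0.844 without macrophage-marker cells, and that of CD4 cells lacking Foxp3 was 0.956 with median-ratio scaling. The CD8 difference in inverse Simpson number (5.91) was 7.14 with each cell counted once, 2.57 with copies pooled and 4.11 without Trav7-3, and that of CD4 cells lacking Foxp3 (7.47) was 1.16 with copies pooled (-0.78 to 3.10). Shannon differences read at 80 UMIs were 7.79 for CD8 and 5.35 for CD4 cells lacking Foxp3. Without thinning the CD8 difference in cells with a Trav UMI was -11.2 points. The share difference of Trav16n in CD8 cells was -1.55 points without Trav7-3.

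Counts of CD8 segments by share (21 higher, 5 lower) were 10 and 2 with copies pooled, 12 higher without Trav7-3, and 3 lower both with at most 5% mitochondrial UMIs and without cells above 20000 UMIs. In CD4 cells lacking Foxp3 (1 and 1), 0 were higher with each cell counted once, and 2 were lower both with at least 2 lineage UMIs and without macrophage-marker cells. In CD4 cells with Foxp3 (7 and 1), 4 and 0 remained in number with each cell counted once, 1 and 0 with copies pooled, and 0 were lower with at most 5% mitochondrial UMIs.

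Counts by 2-fold CPM in CD8 cells (17 and 2) were 4 higher with at least 50 UMIs per gene, 11 higher without macrophage-marker cells and 4 lower without cells above 20000 UMIs. In CD4 cells lacking Foxp3 (2 lower), 5 were lower with at least 10 UMIs per gene, and 1 with at least 50, with median-ratio scaling, with at most 5% mitochondrial UMIs and with at least 2 lineage UMIs. In CD4 cells with Foxp3 (2 and 3), there were 5 and 12 with at least 10 UMIs per gene, 0 higher with at least 50, 0 and 1 with at least 2 lineage UMIs, 1 higher without macrophage-marker cells and 0 lower with at most 5% mitochondrial UMIs.

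The percent of cells with 1 segment in CD8 cells was 67.1 and 64.1 with copies pooled and 39.9 and 44.2 with at least 3 Trav UMIs. In CD4 cells with Foxp3 it was 33.3 and 50 with at least 3 Trav UMIs, and 69.3 with copies pooled in vehicle.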
